A study of Mus musculus with 8 samples.

Results

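The genes studied here encode the proteins that divide a myelinated axon into its node of Ranvier, paranode and juxtaparanode. They were 10 genes chosen by symbol, *Cntn1*, *Cntn2*, *Cntnap1*, *Cntnap2*, *Nfasc*, *Kcna1*, *Kcna2*, *Kcnab1*, *Scn8a* and *Ank3*, of 25239 gene symbols measured, and all 10 were among the 18123 symbols tested. RNA of the mouse corpus callosum was sequenced in 8 libraries of mice labelled C57BL/6. The study's methods give an age of 8 to 12 weeks and describe the WT mice as male C57BL/6J. They do not state the sex of the TRPA1-KO mice. Bilateral common carotid artery stenosis (BCAS), in which a microcoil around each common carotid artery lowers the blood flow to the brain, was compared with a sham operation that left out the coil. For the genotype labelled WT and for the genotype labelled TRPA1-KO (a constitutive knockout of the *Trpa1* channel gene, backcrossed to C57BL/6J for at least 10 generations), there was 1 sham library of day 14 and 1 BCAS library each of days 7, 10 and 14. The days thus served as the replicates of a label after BCAS (n = 3), and the spread of these libraries holds days as well as animals. The 2 sham libraries were of the same day and differed in label. Where they formed 1 group without the label in the fit, their spread held the label as well as the animal. With sham of day 14 only, day and operation cannot be fully told apart in the comparisons with sham.

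At the node, the sodium channel Scn8a (Nav1.6) regenerates the action potential, and ankyrin-G, the product of *Ank3*, anchors it to the spectrin cytoskeleton. At the paranode, contactin 1 and Caspr (*Cntn1*, *Cntnap1*) on the axon bind a glial form of neurofascin (*Nfasc*) on the myelin loops and so fence off the node. Under the myelin next to it, contactin 2 and Caspr2 (*Cntn2*, *Cntnap2*) hold the potassium channels Kv1.1 and Kv1.2 (*Kcna1*, *Kcna2*) and their beta subunits, one of which is made by *Kcnab1*. Neurons make most of these RNAs, and oligodendrocytes also express *Nfasc* and *Cntn2*. The corpus callosum is made of axons and glia, and the RNA of an axonal protein is held largely in the cell body.

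Libraries held 7896071 to 12952093 reads on genes. *Trpa1* had 0 or 1 read in the 4 libraries labelled WT and 3 to 11 reads in the 4 labelled TRPA1-KO, which goes against the labels, and gene-level reads do not show whether they lie in the deleted part of the gene, so libraries are called by their label throughout. The dissected tissue held RNA of neuronal marker genes: none of the 10 pan-neuron marker genes was at 0 in any library, and their summed level was 6670 to 8563 CPM, the deposited unit of reads scaled to a common library size. Mature oligodendrocyte markers summed to 12630 to 16891 CPM. The 2 sham libraries stood apart in 2 marker lists. Their striatal projection neuron markers summed to 1641 and 2230 CPM, against 845 to 1493 CPM in the 6 BCAS libraries, and their mature oligodendrocyte markers to 15364 and 16891 CPM, against 12630 to 14308 CPM. The BCAS library labelled WT of day 7 had the lowest pan-neuron level (6670 CPM) and the highest microglial one (893 CPM, against 308 to 538 CPM in the other 7). Cortical excitatory neuron markers summed to 1436 to 1877 CPM, with both sham libraries inside that range. In bulk tissue, fewer cells of a type in the piece dissected and less RNA per cell cannot be told apart. The extent of each dissection is not known from these values.

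Of the 10 genes, *Kcnab1* and *Cntn2*, both of the juxtaparanode, were the pair with the lowest levels after BCAS relative to sham and the pair whose levels ran together most closely over the 8 libraries (Pearson's r = 0.87, across libraries that share 2 sham samples, given as a description). *Cntn2* was only just below *Nfasc*, at 88.7% and 89.6% of the sham mean over all BCAS libraries. With the label WT these were 83.7% and 87.1%. With the label TRPA1-KO, *Nfasc* (92.1%) and *Kcna1* (92.8%) were lower than *Cntn2* (93.8%). The promoter sequences of *Kcnab1* and *Cntn2* are shown because of these ranks, of which that of *Cntn2* was nearly tied. RefSeq (GRCm38.p6) held 14 windows for 7 of the 10 genes, each here cut to the 250 bases before a transcription start. Each is printed 5′ to 3′ on the gene's strand, in lower case, with matches to CANNTG, the E-box, in capitals. The pattern CANNTG is the same on both strands, although the letters of a single match, such as CAAGTG, need not be.
*Kcnab1*, first start, chr3:64948962-64949211, plus strand: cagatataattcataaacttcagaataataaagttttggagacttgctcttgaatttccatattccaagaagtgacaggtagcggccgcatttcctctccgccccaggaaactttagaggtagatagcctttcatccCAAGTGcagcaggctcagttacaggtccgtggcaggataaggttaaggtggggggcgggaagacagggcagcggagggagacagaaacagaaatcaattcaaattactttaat
*Kcnab1*, next start, chr3:65108764-65109013, plus strand: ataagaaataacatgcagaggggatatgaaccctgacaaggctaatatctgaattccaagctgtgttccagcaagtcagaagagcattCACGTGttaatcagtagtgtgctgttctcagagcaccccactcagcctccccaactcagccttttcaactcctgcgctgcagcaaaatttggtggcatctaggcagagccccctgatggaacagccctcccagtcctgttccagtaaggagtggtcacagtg
*Kcnab1*, last start, chr3:65187853-65188102, plus strand: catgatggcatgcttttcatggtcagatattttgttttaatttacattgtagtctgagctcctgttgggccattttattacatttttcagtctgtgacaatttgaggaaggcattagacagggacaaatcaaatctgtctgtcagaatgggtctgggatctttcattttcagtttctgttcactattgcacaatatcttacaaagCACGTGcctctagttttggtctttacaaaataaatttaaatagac
*Cntn2*, chr1:132542941-132543190, minus strand: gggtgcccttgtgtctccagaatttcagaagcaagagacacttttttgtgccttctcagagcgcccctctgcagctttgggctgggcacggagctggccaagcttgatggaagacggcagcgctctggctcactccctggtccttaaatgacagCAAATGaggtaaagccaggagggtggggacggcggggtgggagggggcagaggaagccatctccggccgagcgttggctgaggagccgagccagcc
The first and the next *Kcnab1* start lie upstream of the GENCODE M21 gene span (chr3:65109384-65378223) used below for position and length. Each of these 4 windows held 1 E-box. At least 1 was held by 8 of the 14 windows of the genes studied here and by 66.2% of 32851 mouse windows of the same length. The last 2 *Kcnab1* windows held the form CACGTG, present in 6.02% of all windows. Reads were counted per gene, so the level of each *Kcnab1* start is not known from these values. A match describes the letters of a window, not the binding of a factor.

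Per length of exon, the levels of the 10 genes differed by over an order of magnitude, from 79.5 ± 4.31 CPM per kb (SD, n = 8) for *Kcna1* to 6.88 ± 0.20 for *Cntnap2*. *Cntnap1* followed *Kcna1* with 52.0 ± 2.84 CPM per kb, and then came *Cntn1* (43.1 ± 3.33), *Nfasc* (41.1 ± 4.26), *Cntn2* (33.4 ± 3.24), *Scn8a* (28.8 ± 2.33), *Kcna2* (27.9 ± 2.31), *Kcnab1* (16.4 ± 2.87) and *Ank3* (10.1 ± 0.63). The ranges of neighbours in this order overlapped from *Cntn1* to *Kcna2*. Within a library, *Cntn1* was above *Nfasc* in 6 of 8 libraries, *Scn8a* above *Kcna2* in 6 of 8 and *Cntn2* above *Scn8a* in 7 of 8, so these neighbours did not differ beyond their spread. The remaining neighbours kept their order in 8 of 8 libraries, although the ranges of *Nfasc* and *Cntn2* overlapped. The lengths are unions of all annotated exons (GENCODE M21), which sets long genes with many alternative exons, such as *Ank3* (34838 bases), lower. At 569 to 8074 reads per gene and library, counting error was small.

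**Figure D1:**
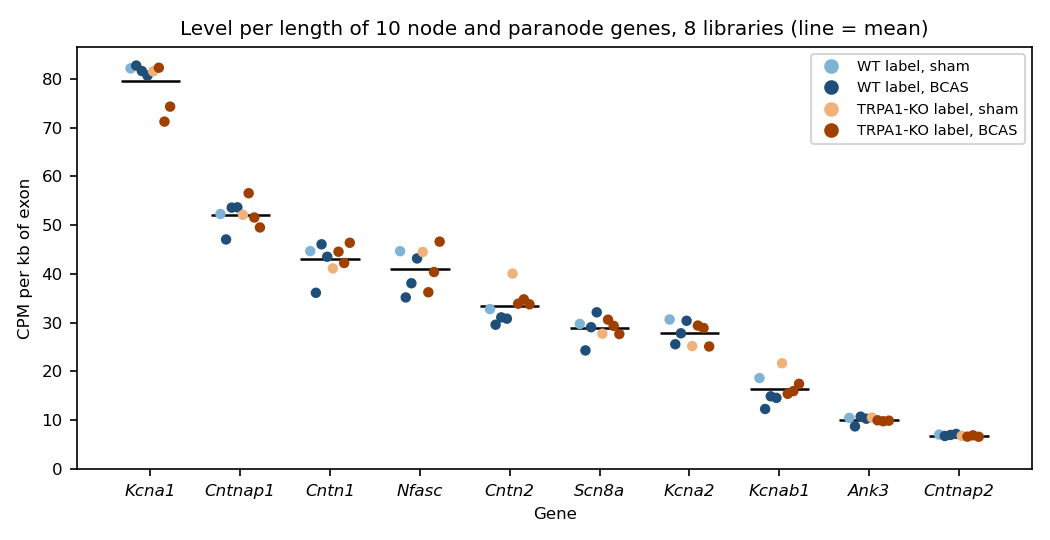
Level of the 10 genes in CPM per kb of exon union (y axis), ordered by the mean over 8 libraries (black line), with 1 point per library colored by label and operation. *Kcna1* is highest with a mean of 79.5 and *Cntnap2* lowest with 6.88, and the ranges of neighbours in the order overlap from *Cntn1* to *Kcna2*.

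Of the paranode genes, *Cntn1* and *Cntnap1* differed little between BCAS and sham, and *Nfasc* varied more. *Cntn1* (chr15:92051165-92341967, GRCm38) was at 421 CPM after sham with the label WT and at 388 CPM after sham with the label TRPA1-KO. After BCAS it was at 341, 435 and 410.5 CPM on days 7, 10 and 14 with the label WT and at 420, 398 and 437 CPM with the label TRPA1-KO. Its low value was the library labelled WT of day 7, and the groups overlapped. All BCAS libraries together differed from sham by 0.00 on the log2(CPM + 1) scale (95% interval -0.22 to 0.22).

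*Cntnap1* (chr11:101170523-101190724) was steadier. Its sham libraries were at 307 and 306 CPM, its BCAS libraries labelled WT at 276, 315 and 315 CPM, and those labelled TRPA1-KO at 332, 303 and 291 CPM. The sham values lay inside the BCAS range, and the difference was -0.01 (-0.19 to 0.17). A stretch of 233 of its exon bases, 3.97% of them, overlaps exons of *Plekhh3* on the other strand (mean 12.4 CPM), from which reads cannot be told apart without strand.

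*Nfasc* (chr1:132564690-132741797) was the paranode gene with the widest spread. It had 632 and 629 CPM in the sham libraries. After BCAS it had 498, 539 and 611 CPM on days 7, 10 and 14 with the label WT, and 513, 571 and 659 CPM with the label TRPA1-KO. In both labels the level was lowest on day 7 and highest on day 14, where it was close to sham or above it. With 1 library per day and label, this order of days was not tested. All BCAS against sham gave -0.17 ± 0.11 (SE; 95% interval -0.41 to 0.08; limma adjusted p = 0.9998). The summed oligodendrocyte markers after BCAS were also highest on day 14 in both labels, at 13713 and 14308 CPM. *Nfasc* and these sums had r = 0.74 over 8 libraries (adjusted p = 0.131 by exact permutation) and r = 0.88 over the 6 BCAS libraries (adjusted p = 0.181 by exact permutation), which was 0.03 without the day 14 libraries. With the striatal projection neuron sum, r was 0.78 over 8 libraries (adjusted p = 0.086 by exact permutation) and 0.75 over the 6 BCAS libraries (adjusted p = 0.287 by exact permutation), and it was 0.69 and 0.78 without the 2 libraries farthest from the median. The part of either cell type in the *Nfasc* levels was not tested.

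The adhesion pair of the juxtaparanode differed from each other. *Cntnap2* (chr6:45059357-47304213) had the narrowest spread of the 10 genes, a coefficient of variation of 2.97% over 8 libraries. Its values ran from 67.8 to 73.8 CPM with the sham libraries (72.4 and 69.8 CPM) inside that range, and BCAS differed from sham by -0.02 (-0.16 to 0.13).

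*Cntn2* (chr1:132509427-132543256) was lower in each BCAS library than in the sham library of its own label. The label WT had 305 CPM after sham and 275, 289 and 287 CPM on days 7, 10 and 14 of BCAS. The label TRPA1-KO had 373 CPM after sham and 315, 324 and 314 CPM after BCAS. All 3 BCAS libraries labelled WT were thus below all 3 labelled TRPA1-KO, and the sham library labelled WT was below each BCAS library labelled TRPA1-KO. All BCAS against sham, with the label in the fit, gave -0.17 ± 0.07 on the log2 scale (SE; 95% interval -0.32 to -0.02). Its unadjusted limma p was under 0.05 and its limma adjusted p = 0.9998. Its two-sided exact permutation p, which unlike the fit left the label out, was 0.214. The unadjusted p was no longer under 0.05 without the sham library labelled TRPA1-KO, which leaves the label WT alone to compare (-0.10), or without the BCAS libraries labelled TRPA1-KO of day 10 (-0.17) or day 14 (-0.16).

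Of the potassium channel genes, *Kcna1* and *Kcna2* differed little and *Kcnab1* was lower after BCAS. *Kcna1* (chr6:126640397-126646384) had 393 and 390 CPM in the sham libraries and 385 to 395 CPM in the 3 BCAS libraries labelled WT. The label TRPA1-KO gave 393, 340 and 355 CPM on days 7, 10 and 14, of which the last 2 were the lowest of all 8 libraries. BCAS differed from sham by -0.06 (-0.23 to 0.11).

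*Kcna2* (chr3:107101146-107115005) differed more between the sham libraries, 365 and 300 CPM, than BCAS differed from sham. Its BCAS libraries had 305, 331 and 362 CPM with the label WT and 350, 344 and 299 CPM with the label TRPA1-KO. BCAS differed from sham by 0.00 (-0.21 to 0.22).

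After sham, *Kcnab1* (chr3:65109384-65378223) was at 160.2 CPM with the label WT and at 186 CPM with the label TRPA1-KO. After BCAS it had 106, 128 and 125 CPM on days 7, 10 and 14 with the label WT and 133, 137 and 150.1 CPM for TRPA1-KO. Both sham libraries were above all 6 BCAS libraries, and the BCAS mean, 129.9 ± 14.7 CPM (SD, n = 6), was 74.9% of the sham mean, 173 ± 18.5 CPM (n = 2). The difference was -0.42 ± 0.08 on the log2 scale (SE; 95% interval -0.60 to -0.23). Its two-sided exact permutation p was 0.036, the smallest that 6 libraries against 2 allow. Its unadjusted limma p ranked 5 of 18123, and the limma adjusted p = 0.9998. On recovered reads, DESeq2 gave an adjusted p = 0.0283 and edgeR an adjusted p = 1, so the call depended on the tool. An antisense transcript, A330015K06Rik (mean 2.61 CPM), shares 201 of its exon bases, 2.34% of them, and without strand its reads cannot be told apart.

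**Figure D2:**
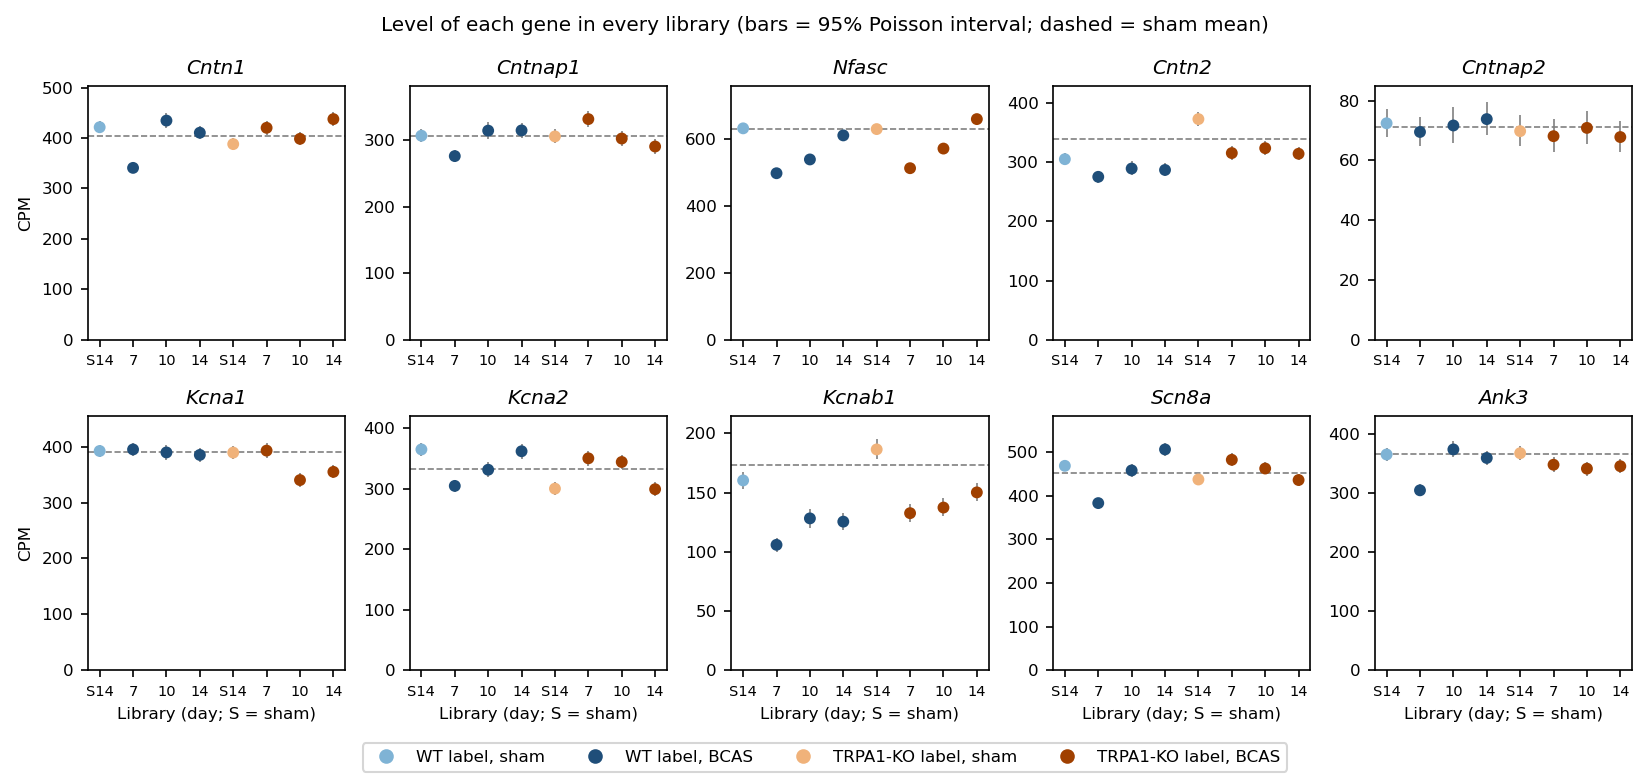
CPM of each gene (y axis, from 0) in the 8 libraries (x axis, sham day 14 then BCAS days 7, 10 and 14 for the label WT and for the label TRPA1-KO). Bars are 95% Poisson intervals for counting error, and the dashed line is the mean of the 2 sham libraries. All 6 *Kcnab1* BCAS points lie below both sham points, and *Cntnap2* runs flat between 67.8 and 73.8.

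The nodal channel and its anchor differed little. *Scn8a* (chr15:100869858-101045938) had 469 and 438 CPM in the sham libraries. Its BCAS libraries had 383, 458 and 507 CPM with the label WT and 483, 463 and 436 CPM with the label TRPA1-KO. BCAS thus differed from sham by 0.00 (-0.23 to 0.23), and the lowest value was again the library labelled WT of day 7.

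*Ank3* (chr10:69398773-70027438) had 366 and 368 CPM in the sham libraries. After BCAS it had 305, 374 and 360 CPM with the label WT, and 348, 342 and 346 CPM with the label TRPA1-KO. These last 3 were all below both sham libraries, and BCAS differed from sham by -0.09 (-0.27 to 0.10).

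Over the 10 genes, 2 had an unadjusted limma p under 0.05 for all BCAS against sham, *Kcnab1* and *Cntn2*, both lower after BCAS, where 3.54% of the 18123 genes tested had such a p. The median difference of the 10 genes was -0.04, with 3 higher and 7 lower, against 0.00 over all genes. *Kcnab1* alone had every BCAS library below both sham libraries, as had 3.59% of all genes. After adjustment, none of the 10 genes and 0% of all genes passed in limma. The count over all genes before adjustment was 642, DESeq2 called 11 genes with an adjusted p under 0.05, and edgeR called 0. Without *Kcnab1* and *Cntn2*, the other 8 genes lay between -0.17 and 0.00.

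The BCAS libraries labelled WT against sham gave 2 of the 10 genes with an unadjusted limma p under 0.05, where 5.45% of all genes had one. They were *Kcnab1*, at -0.53 ± 0.10 (95% interval -0.76 to -0.30), and *Cntn2*, at -0.25 ± 0.09 (-0.45 to -0.05). For *Kcnab1* limma gave an adjusted p = 0.728, edgeR an adjusted p = 0.534 and DESeq2 an adjusted p = 0.0141. For *Cntn2* it was adjusted p = 0.885 in limma. After adjustment 0% of all genes passed in limma (988 had an unadjusted p under 0.05), 0 in edgeR and 24 in DESeq2. The exact permutation p was 0.1 for each of the 2, the smallest that 3 libraries against 2 allow. These 2 and *Nfasc* (-0.20 ± 0.12) were below both sham libraries on each day, as were 11% of all genes. *Cntn2* was at -0.10, with an unadjusted p no longer under 0.05, without the sham library labelled TRPA1-KO. Without the BCAS library labelled WT of day 14, *Nfasc* was at -0.28 with an unadjusted p under 0.05 and a limma adjusted p = 0.386. In that fit 2013 genes of all had an unadjusted p under 0.05, against 988 with the library kept.

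The BCAS libraries labelled TRPA1-KO, set against the same 2 sham libraries, gave 1 gene of the 10 with a p under 0.05, where 2.74% of all genes had one. That gene was *Kcnab1*, at -0.30 ± 0.10 (95% interval -0.53 to -0.08; limma adjusted p = 1; exact permutation p = 0.1). It was at -0.20 without the sham library labelled TRPA1-KO, and its unadjusted p was then no longer under 0.05. *Kcnab1* and *Ank3* were below both sham libraries on each day, as were 10.2% of all genes. *Cntn2* was at -0.09 ± 0.09, and turned to 0.06 without that sham library and to -0.23 without the other one. No gene of the 10 passed adjustment, as against 0.00552% of all genes.

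Between the BCAS libraries of the 2 labels, 2 of the 10 genes had an unadjusted limma p under 0.05, against 4.2% of all genes. *Kcnab1* differed by -0.23 ± 0.09 on the log2 scale (label WT minus label TRPA1-KO; 95% interval -0.43 to -0.02; limma adjusted p = 0.983) and *Cntn2* by -0.16 ± 0.07 (-0.32 to -0.01; limma adjusted p = 0.983). In both, the 3 libraries labelled WT were below all 3 labelled TRPA1-KO, as in 4.73% of all genes, and the exact permutation p was 0.1 for each, the smallest that 3 against 3 allow. The sham libraries, 1 per label, were ordered the same way. The unadjusted p of *Kcnab1* was no longer under 0.05 without the library labelled WT of day 7 (-0.14), or without those labelled TRPA1-KO of day 10 (-0.24) or day 14 (-0.18). That of *Cntn2* was not when any 1 of the 6 was left out (-0.18 to -0.14). After adjustment none of the 10 genes passed, as against 0.0166% of all genes.

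Whether the BCAS change itself differed between labels was tested as an interaction. None of the 10 genes had a p under 0.05, where 1.5% of all genes had one, and 0% of all genes passed adjustment in limma (271 had an unadjusted p under 0.05, and edgeR and DESeq2 both called 0 after adjustment). For *Kcnab1* the difference of changes was -0.01 (95% interval -0.41 to 0.40), and for *Cntn2* it was 0.13 (-0.19 to 0.44). The largest was that of *Kcna2*, -0.28 (-0.70 to 0.15). Each label had 1 sham library in this test.

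**Figure D3:**
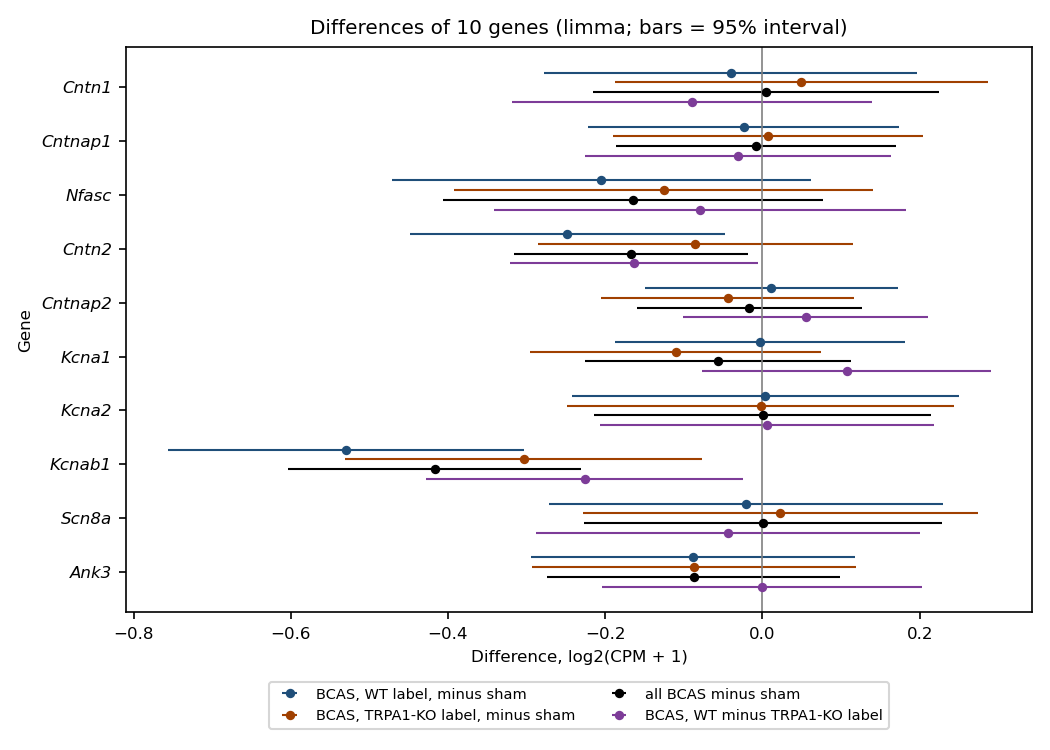
Differences of the 10 genes on the log2(CPM + 1) scale (x axis) with 95% limma intervals, for each BCAS label minus sham, all BCAS minus sham, and the BCAS libraries labelled WT minus those labelled TRPA1-KO. The intervals of *Kcnab1* lie below 0 in all 4 comparisons, those of *Cntn2* in 3, and those of the other 8 genes cross 0.

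The levels of *Scn8a* and *Cntnap1* followed the level of neuronal markers in a library. Over the 8 libraries, their log2 levels correlated with the log2 sum of the 10 pan-neuron markers. *Scn8a* had a Pearson's r of 0.93 (exact permutation p = 0.00107, adjusted over 20 relations 0.0186) and a Spearman's rho of 0.93 (adjusted p = 0.0446 by exact permutation). Without the 2 libraries farthest from the median, both of day 7, r was 0.92. *Cntnap1* had r = 0.92 (exact permutation p = 0.00186, adjusted 0.0186) and rho = 0.90 (adjusted p = 0.0456 by exact permutation), with r = 0.67 without those 2. Within the 6 BCAS libraries, r was 0.94 for *Scn8a* (exact permutation, adjusted p = 0.0486 over 10 genes) and 0.98 for *Cntnap1* (adjusted p = 0.0139). The rho of *Scn8a* there was 0.89 (adjusted p = 0.167 by exact permutation). *Kcna2* had r = 0.80 (adjusted p = 0.076 by exact permutation), *Cntn1* 0.72 (0.149) and *Ank3* 0.61 (0.282). *Kcna1*, *Cntnap2*, *Nfasc*, *Cntn2* and *Kcnab1* lay between -0.00 and 0.28. Without the 2 day 7 libraries, r was 0.91 for *Kcna2*, 0.89 for *Cntnap2*, 0.28 for *Cntn1* and 0.24 for *Ank3*. For *Kcna1* and *Nfasc* it was then 0.34 and -0.31.

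The BCAS library labelled WT of day 7 was the lowest of 8 for 7 of the 10 genes. The share of all genes that were lowest in this library was not counted. This library was also lowest in the pan-neuron and striatal sums (6670 and 845 CPM) and highest in the microglial and astrocyte sums (893 and 5161 CPM). Its *Gfap* level was 1415 CPM, against 157 to 1060 CPM elsewhere. The part of these cell types in its low values was not tested. The 10 genes took 0.306% of its reads on genes and 0.330 to 0.345% elsewhere. Relative to the sham mean, the median of the 10 genes was -0.24 (log2) in this library and between -0.08 and 0.01 in the other 5 BCAS libraries. The median log2(CPM + 1) of all genes tested was 4.25 in this library and 4.13 to 4.18 elsewhere. Without it, the median difference of the 10 genes turned from -0.03 to 0.02 for the label WT against sham, and from -0.04 to 0.05 for the label WT against TRPA1-KO after BCAS. *Kcnab1* in all BCAS against sham was -0.38 without this library.

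For *Kcnab1* and *Cntn2*, r with the pan-neuron sum was 0.11 and -0.00 over 8 libraries and 0.45 and 0.41 within the 6 BCAS libraries. Without the 2 day 7 libraries it was -0.69 and -0.85 over the rest of the 8, and -0.94 and -0.81 over the rest of the 6, so neither relation was stable. Both sham libraries stood apart from BCAS for *Kcnab1* and for 2 marker lists, so the relations with these lists are given first within the 6 BCAS libraries. There *Kcnab1* and the striatal projection neuron sum had r = 0.81 (exact permutation p = 0.031, adjusted over 10 genes 0.153) and rho = 0.77, with r = 0.67 without the 2 libraries farthest from the median. Over all 8 libraries, r was 0.93 (adjusted p = 0.0131 by exact permutation) and rho 0.90 (adjusted p = 0.0456 by exact permutation), with r = 0.77 without the 2 farthest libraries. For the mature oligodendrocyte sum, r was 0.41 (exact permutation p = 0.43). The relation with that sum over all 8 libraries (r = 0.85, rho = 0.62, adjusted p of r = 0.0402 by exact permutation) thus rested on the sham libraries. Of the 8 striatal markers, 6 were higher in both sham libraries than in every BCAS library, their BCAS sum was 60.9% of sham, and none was at 0 in any library. Of the 10 oligodendrocyte markers, 5 were, with a sum of 82.1% of sham and none at 0. The part of either list in the *Kcnab1* and *Cntn2* differences was not tested. For *Cntn2* within the 6 BCAS libraries, r was 0.62 with the striatal sum and 0.01 with the oligodendrocyte sum. Over all 8 libraries its r with the striatal sum was 0.80 (adjusted p = 0.0835 by exact permutation), and 0.28 without the 2 farthest libraries. Within the 6 BCAS libraries, *Kcna1* ran against the striatal sum (r = -0.87, rho = -0.94), with an exact permutation p of 0.021 that was 0.153 after adjustment. Over all 8 libraries its r with that sum was -0.28.

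**Figure D4:**
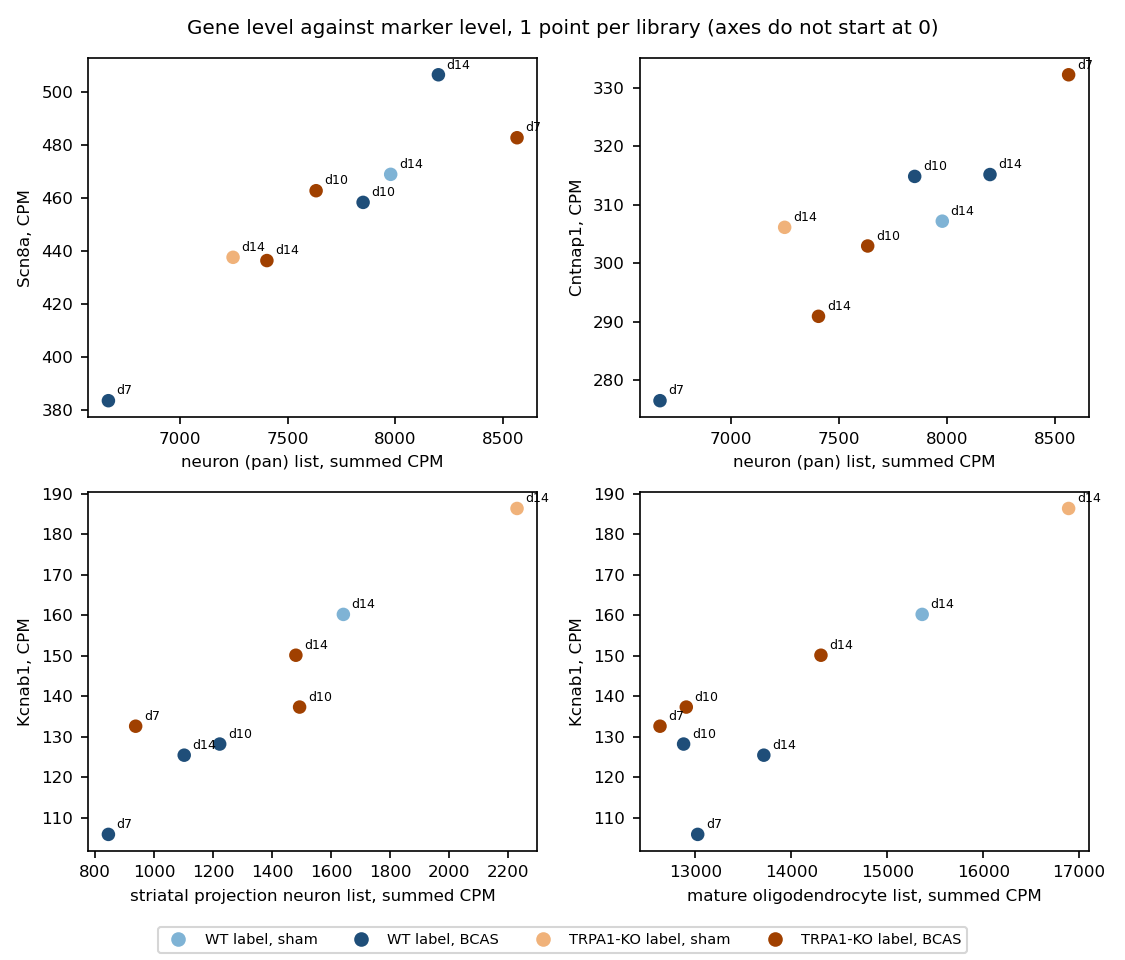
Level of a gene (y axis, CPM) against the summed CPM of a marker list (x axis), 1 point per library with its day, colored by label and operation. The axes do not start at 0. *Scn8a* and *Cntnap1* rise with the pan-neuron sum, and for *Kcnab1* both sham libraries lie at the upper right of the striatal and oligodendrocyte sums.

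Of 25 further genes of the node and its surroundings, 10 were higher and 15 lower for all BCAS against sham, with a median of -0.03, and 2 had an unadjusted limma p under 0.05, both lower, where 3.54% of all genes had one. The counts with such a p were 2 for the label WT against sham (5.45% of all genes), 2 for the label TRPA1-KO against sham (2.74%), 2 between the BCAS labels (4.2%) and 0 for the interaction (1.5%). *Scn4b* and *Vcan* were also the 2 with every BCAS library below both sham libraries, as were 3.59% of all genes. *Scn4b*, a beta subunit of sodium channels that striatal projection neurons also express strongly, had 461 and 510 CPM in the sham libraries. Its BCAS libraries had 250, 309 and 342 CPM with the label WT and 333, 432 and 388 CPM with the label TRPA1-KO. All were below sham (-0.52 ± 0.13, limma adjusted p = 0.9998), and the BCAS values of the 2 labels overlapped. The exact permutation p of *Scn4b* was 0.071 for all BCAS against sham and 0.2 between the BCAS labels. Against sham it was 0.1 for the label WT and 0.2 for the label TRPA1-KO. As for *Kcnab1*, the call depended on the tool: on recovered reads DESeq2 gave *Scn4b* an adjusted p = 0.0283 for all BCAS and an adjusted p = 0.00259 for the label WT against sham, and edgeR an adjusted p = 1 and an adjusted p = 0.534. *Scn4b* was also lower after BCAS in each label (-0.70 and -0.34) and lower with the label WT than with TRPA1-KO (-0.36), each with an unadjusted p under 0.05. The last of these was no longer under 0.05 without the BCAS library labelled WT of day 7 (-0.23) or those labelled TRPA1-KO of day 10 (-0.27) or 14 (-0.35). That of the label TRPA1-KO against sham was not without its own sham library (-0.27) or its BCAS libraries of day 7 (-0.24) or 14 (-0.35). Versican (*Vcan*), a proteoglycan of the nodal matrix that precursor cells also make, had 41.7 and 45.2 CPM after sham. It had 38.1 to 39.7 CPM in the BCAS libraries labelled WT and 27.1 to 37.2 CPM in those labelled TRPA1-KO. All BCAS differed from sham by -0.31 ± 0.12 (limma adjusted p = 0.9998, exact permutation p = 0.071). Without the sham library labelled TRPA1-KO it was at -0.11, and without the BCAS library labelled TRPA1-KO of day 10 at -0.29, both with an unadjusted p no longer under 0.05. *Vcan* was at -0.46 for the label TRPA1-KO against sham (exact permutation p = 0.2) and at 0.29 between the BCAS labels (exact permutation p = 0.1), both with an unadjusted limma p under 0.05. The second was no longer under 0.05 when any 1 of the 4 libraries of days 7 and 10 was left out (0.19 to 0.30). The potassium channel gene *Kcnk2* had such a p for the label WT against sham (-0.24), at 63.2 ± 6.33 CPM (SD, n = 3) against 74.8 ± 7.43 CPM (n = 2). It was at -0.14 without the sham library labelled WT and at -0.16 without the BCAS library of day 7, no longer with such a p.

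By group, the 9 nodal channel genes had a median of 0.00 for all BCAS against sham, and 8 of them lay within -0.20 to 0.10. The 5 spectrin, ankyrin and band 4.1 genes, which hold the membrane proteins in place, lay between -0.06 and 0.03. The 6 adhesion and juxtaparanode genes, among them *Nrcam*, *Adam22* and the sister beta subunit *Kcnab2*, lay between -0.08 and 0.08. *Kcnab2* itself was at 0.03 (-0.16 to 0.22). The 5 nodal matrix genes had a median of -0.29 with 4 of 5 lower, and *Vcan* was the 1 with an unadjusted p under 0.05.

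**Figure D5:**
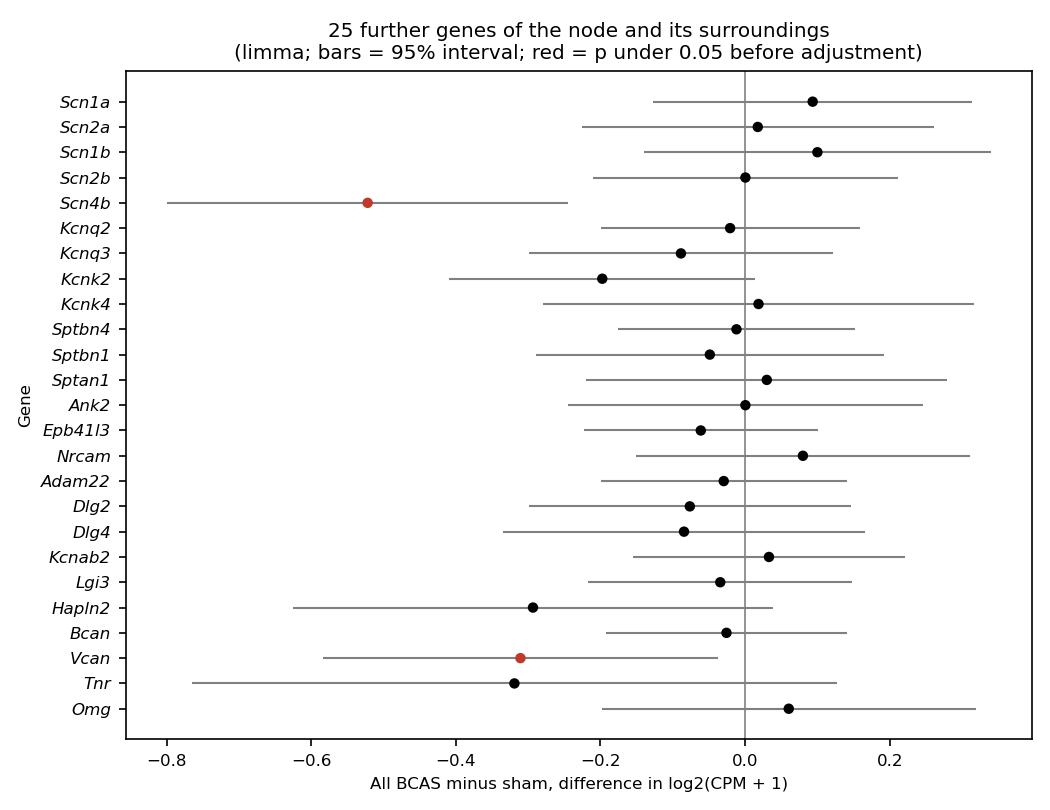
Difference of all BCAS libraries from sham on the log2(CPM + 1) scale (x axis) for 25 further genes of the node and its surroundings, with 95% limma intervals. *Scn4b* (-0.52) and *Vcan* (-0.31), in red, have a p under 0.05 before adjustment, and the other 23 intervals cross 0.

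Among the 10 genes, levels of *Cntnap1* and *Scn8a* ran together over the 8 libraries (r = 0.85), as did *Kcna2* and *Scn8a* (0.79), *Cntn1* and *Ank3* (0.76) and *Nfasc* and *Kcnab1* (0.75). For partners of one complex, r was 0.62 for *Cntn1* and *Cntnap1*, 0.10 for *Kcna1* and *Kcna2*, and -0.32 for *Cntn2* and *Cntnap2*. Among 10744 genes averaging 10 CPM or more, those with the pattern most like each gene over the 8 libraries were *Reep1*, *Stk16* and *Eps15* for *Cntn1* (r = 0.97 to 0.99), and *Gnaz*, *Lynx1* and *Chrm3* for *Cntnap1* (0.98 to 0.99). They were *Arhgef28*, *Sh3gl3* and *Cog2* for *Nfasc* (0.97 to 0.98), *Slain1*, *Tfdp2* and *Enpp4* for *Cntn2* (0.94 to 0.96), and *Zdhhc5*, *Eml4* and *Mir3104* for *Cntnap2* (0.94 to 0.96). For *Kcna1* they were *Fam120aos*, *Usp8* and *Lats2* (0.92 to 0.94), for *Kcna2* *Parp1*, *Ergic1* and *Mapk14* (0.96 to 0.99), and for *Kcnab1* *Gpr155*, *Rrp36* and *Nedd9* (0.97 to 0.98). *Btbd10* and *Hk1* were among those most like *Scn8a* (both 0.98), and *Myt1l*, *Pspc1* and *Mrtfb* most like *Ank3* (0.95 to 0.96). The 8 points share the tissue and the 2 sham samples, and the values are descriptions.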

How the data were processed

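Polyadenylated RNA was made into libraries with the NEBNext Ultra RNA kit and sequenced on an Illumina NovaSeq. Per the study's methods and the labels, the authors mapped reads to GRCm38 (mm10) with HISAT, counted them per gene with featureCounts of Subread and normalized them with edgeR. The annotation and strand setting are not given in the sources used here. The deposited values are a normalized signal of CPM, that is, counts divided by effective library size, not log-transformed. All values (100%, tolerance 0.01) were whole multiples of 1 read, so reads were recovered. As planned for values that are not raw counts, limma on a log2 scale was the test.

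The 10 genes, marker lists and further genes were chosen with earlier results of these data known. Of the further genes, those with a limma p under 0.05 are named, at most 4 per comparison. For each of the 10 genes, the 3 others with the highest Pearson's r are named, except 1 that is not reported here.

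Genes averaging 0.1 CPM or more (18123) were tested on the log2(CPM + 1) scale with limma version 3.58.1 (trend, two-sided, Benjamini-Hochberg) in R version 4.3.3. The BCAS labels were compared over 6 libraries, and comparisons with sham used all 8 and shared the 2 sham libraries. Exact permutation tests (two-sided) took the absolute difference of means or the correlation. For all BCAS against sham they left out the label that the limma fit held. Tried instead were a pseudocount of 0.1, dropping the filter or raising it to a mean of 1 CPM, equalized library medians, edgeR version 4.0.16 and DESeq2 version 1.42.0 on recovered reads, other sham sets, day 14 alone, no label in the fit, day as a block and each library left out. Relations with striatal markers and within the BCAS libraries were added after seeing the data. Scripts were tested on simulated data. Positions come from GENCODE M21. Intervals of single values cover counting error only.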

Additional observations from a re-analysis of the deposited data

How the results depend on the processing

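The number of the 10 genes with a limma p under 0.05, 2 between the BCAS labels, was 1 with no filter, with equalized library medians, with all 8 libraries in 1 fit or with day as a replicate block, and 0 to 1 when each library was left out. The deviations of same-day libraries from their group means correlated at -0.10, 0.0051 and -0.26 over 10744 genes. With 1 pair of libraries per day, these values cannot tell whether libraries of a day shared an effect. With the block, *Cntn2* no longer had a p under 0.05, and 632 genes of all had one, against 761. With no filter, equalized medians or 1 fit, 777 to 979 genes of all had one, and with a library left out 325 to 1846. For the label WT against sham the number, 2, became 3 without the BCAS library of day 14, through *Nfasc*. In that fit 2013 genes of all had such a p, against 988 in the main fit. *Cntn2* was at -0.10 in this comparison without the sham library labelled TRPA1-KO. For the label TRPA1-KO, 1 became 2 with its own sham library only and 0 to 2 with a library left out. For all BCAS against sham, 2 became 1 without the label in the fit and 1 to 2 with a library left out. With a BCAS library left out, 325 to 735 genes of all had such a p for the label TRPA1-KO against sham (496 in the main fit). For all BCAS against sham, 544 to 917 genes had one (642 in the main fit). DESeq2 was the alternative that gave an adjusted p under 0.05, for 1 gene (*Kcnab1*), for all BCAS and for the label WT against sham. With mean log2 levels of the markers in place of sums, 1 gene (*Cntnap1*) in place of 2 passed for pan-neuron markers and 0 in place of 1 for oligodendrocyte markers.

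*Kcnab1* stayed lower after BCAS under all 16 alternatives of the comparison of all BCAS with sham (-0.44 to -0.33), each with an unadjusted p under 0.05, and its adjusted p ran from 0.0283 to 1. *Cntn2* had a p under 0.05 in 12 of 16 (-0.23 to -0.10). The cause of these shifts was not tested. The 95% intervals of the 8 other genes ended between 5.46% and 17.2% at the upper end. At the lower end they ended between -24.6% and -10.5%. With 2 sham libraries, a difference within a gene's interval is not excluded for that gene.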
